A study of Mus musculus with 6 samples.

Results

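The host genes Cdyl, Ankrd12, Tulp4, Zfp148 and Ankib1, are 5 genes described here by their circular RNAs (circRNAs) in mouse brain. They were chosen by measured values of the same libraries, namely the junction reads of their most abundant circle and its share of the host's reads, so these levels are given as a description without a test. The table held 54 circRNAs of these 5 genes, out of 18136 circRNAs from 5414 named host genes. The dominant circles of the 5 hosts were among the 9 circRNAs with most reads over all libraries. Near the lower end, the Ankib1 circle had 873 reads, next to circles of Rnf169 with 878 and Ssbp2 with 807 reads, which are not part of the set. Circles of Rims2 and Zfp609 lay within the same range of reads, and that of Cdr1os above it, and they are not part of the set either.

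The series holds 6 circRNA-enriched brain libraries, of which 3 are labelled WT (wild type) and 3 A53T, the series' transgenic mouse model of Parkinson disease. The sample labels name brain, while the design text speaks of the substantia nigra in the midbrain. The sources used here give neither age, sex, strain background nor the promoter of the transgene, and do not say whether each library is a separate animal. All p-values therefore rest on the spread among these 6 libraries alone, and that spread may be technical.

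A circRNA forms when the spliceosome joins the end of a downstream exon back to the start of an upstream one. The resulting ring has no free ends, resists exonucleases and builds up in long-lived cells such as neurons. Only reads that cross this back-splice junction were counted, so a longer circle does not offer more positions to count. Other effects of length, base content or mapping on recovery were not tested. Levels of different circles are therefore set side by side as a description. The host genes encode proteins of different roles. Cdyl encodes a chromodomain protein of repressive chromatin, Ankrd12 an ankyrin repeat protein that binds nuclear receptor coactivators, and Zfp148 a zinc finger transcription factor. Tulp4 encodes a large relative of the Tubby protein, and Ankib1 a ubiquitin ligase of the RING-between-RING class that also carries ankyrin repeats.

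The libraries held 25217 to 36390 junction reads, so that 1 read was worth 28.1 to 38.7 CPM (counts scaled to a common library total, with the trimmed mean of M values, TMM). In WT replicate 1 the Cdr1os circle took 0.919% of the reads, against 2.81 to 4.06% in the other libraries. Of 8 neuron markers 7 were listed as host genes, with 1.81 to 2.32% of the reads of a library. Of their 3983 reads, Rims2 held 1891 and Rims1 1729, so the percentage mostly reflects these 2 hosts. It is not an independent check of the tissue label. Of the dopaminergic neuron markers Kcnj6 was listed, while Th, Slc6a3, Slc18a2, Ddc and Nr4a2 were not; microglial markers were not listed, and 3 of 5 astrocyte and 3 of 5 oligodendrocyte markers were absent. The 5 neuron markers that could be tested were all below 0 in A53T against WT (median log2 fold change -0.23 over host sums, 0 passed). Among them, Syt1 was at -0.78 (unadjusted p = 0.0453, adjusted p = 0.989 in the edgeR quasi-likelihood test). Erc2 was at -0.54, Rims1 at -0.22 and Rims2 at -0.01, and 680 of all 1377 tested hosts were below 0. Kcnj6 was at 0.96 (unadjusted p = 0.00648, adjusted p = 0.690 in the edgeR quasi-likelihood test). The tested astrocyte marker, Slc1a2, was at 1.44 with 19 reads in all (adjusted p = 0.989 in the same test). The part of these markers in the values below was not tested. Linear RNA was not counted, so these values give neither gene expression nor cell numbers. In bulk tissue, fewer cells of a type and less RNA per cell cannot be told apart.

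The back-splice junctions identify the 5 circles and are shown as DNA letters of the transcript, 5′ to 3′. Lower case marks the last 15 bases of the circle, and capitals mark its first 15 bases, to which they are joined. Positions follow the table (build mm39), and the letters come from GENCODE M21 transcripts.
Cdyl: ctgttaatggaaaagGTGGAAAGTATCGTT
Ankrd12: atgaaagttatacagATCCAGGATGAGAAG
Tulp4: ggccacaacagtgagAGTTGTAAGAGTCCA
Zfp148: gcactcaatgtccctGATAGAAGAGAAGAA
Ankib1: tgcttcgagctcacgAATGTGAAACATGTT
The Cdyl circle lay at chr13:35999892-36000558 (plus strand), the Ankrd12 circle at chr17:66331071-66360086 (minus strand) and the Tulp4 circle at chr17:6187486-6189431 (plus strand). The Zfp148 circle lay at chr16:33241691-33255344 (plus strand) and the Ankib1 circle at chr5:3797021-3822787 (minus strand). Windows of 31 bases running round each circle were looked up in the transcripts of all other genes. No window of Cdyl, Tulp4, Zfp148 or Ankib1 was found there. Of the 994 windows of Ankrd12, 741 were found in Gm9517, a processed pseudogene, but 0 of the windows across the junction were. A single circRNA with 2 reads was assigned to Gm9517. Reads inside the Ankrd12 circle could thus come from either locus. Windows across the junction join exons in an order that linear transcripts lack. Their absence from Gm9517 therefore cannot show whether the junction separates the 2 loci.

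The Cdyl circle was a single exon, exon 5 of 10, of 667 nt and wholly coding; this exon encodes the chromodomain, which reads methylated histone tails. The GC content of this circle was 56.4%, against 43.5 to 47.1% in the other 4. The Ankrd12 circle ran over exons 2 to 8 of 13, in all 7 exons and 994 nt. The Zfp148 circle held exons 2 to 4 of 9, in 567 nt. The Ankib1 circle held exons 2 to 5 of 20, in 873 nt. Lengths and inner exons are predicted by annotation, since junction reads show only the ends.

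The Tulp4 circle was listed as intronic in the table, with a length of 1946 nt, but both of its edges coincided with exon edges of other Tulp4 transcripts. The table had assigned it to a transcript that splices over this stretch. Distances between circle ends in the table were compared with distances between exon ends in M21, without converting coordinates between builds. The end of the circle lay 37801 nt before the end of another Tulp4 circle and 46142 nt before that of a further one. These were the distances of exons 2 and 3 from the end of exon 1 in a coding Tulp4 transcript of 14 exons. By the same measure, the start of the circle was the start of an exon in 2 of the 12 annotated Tulp4 transcripts. In neither of them was it exon 1, and it lay 937 nt upstream of exon 1 of the coding transcript. The acceptor of an exon of another transcript was thus joined to the donor of exon 1 of the coding one. The acceptor exon used here, of 1582 nt, overlaps exon 1 of the coding transcript by 645 nt. Together they give the listed 1946 nt without a gap. A search for a single annotated exon over the whole span was not run. Whether the inside is unspliced cannot be read from junction reads. Its start was used by 5 circles, which held 1544 of the 1580 Tulp4 reads (97.7%).

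The dominant circles of Ankrd12, Tulp4, Zfp148 and Ankib1, but not that of Cdyl, held the start codon of the host protein. Among all 12349 exonic circRNAs that were matched to exons of a coding transcript, 13.5% held one, and among the 40 of these with at least 300 reads, 12 (30%) did. The circles of Ankrd12, Zfp148 and Ankib1 are among these 12. That of Tulp4, listed as intronic, is not among the 12349, and its start codon rests on the joined exons described above. The surroundings of the start codons are shown with the codon in capitals.
Ankrd12 start: aacagctataaaATGcccaaatctgggttc
Tulp4 start: attgaaaaaagtATGtatgcagcagtggaa
Zfp148 start: ttatacttaagcATGaacattgacgacaaa
Ankib1 start: aaataacaaaacATGggaaatacaaccacc
In the predicted circles, the reading frame of the host crossed the junction before it met a stop codon. It ran for 317 codons in Ankrd12, of which 314 lay before the junction. The values were 95 and 84 codons in Tulp4, 144 and 111 in Zfp148, and 288 and 263 in Ankib1. In each of the 4 this was also the longest frame that began with ATG. In the Cdyl circle the longest such frame began at base 659, close to the end of the exon, crossed the junction and ran for 230 codons. Translation was not measured in these libraries.

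The dominant circles held between 83.7% and 92.9% of the junction reads of their hosts, and the remaining 49 circles held 865 reads together. Cdyl gave 4 circles, and its exon 5 circle held 1910 of 2057 reads. Ankib1 gave 12 circles with 91.7% of reads in the dominant one, Tulp4 12 with 88.7%, Ankrd12 16 with 85.6%, and Zfp148 10 with 83.7%. Over the 82 host genes with at least 300 reads the median share was 62.9% (interquartile range 41.4 to 85.7%), and the hosts had a median of 11 circles. The share of Cdyl stood at rank 10 of these 82, Ankib1 at rank 11, Tulp4 at 18, Ankrd12 at 22 and Zfp148 at 25. Other hosts with many reads lay on both sides of the 5. Near the totals of Ankrd12 (1895 reads) and Tulp4 (1580 reads), the active zone genes Rims2 and Rims1 had 1891 and 1729 reads in 48 and 26 circles, with 52.9% and 31.9% in the dominant one. Near the total of Ankib1 (952 reads), Zfp609 had 962 reads with 96.2% in its dominant circle, Rnf169 978 with 89.8%, Ssbp2 938 with 86.0% and Anks1b 988 with 48.6%. All reads of Cdr1os came from a single circle.

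**Figure D1:**
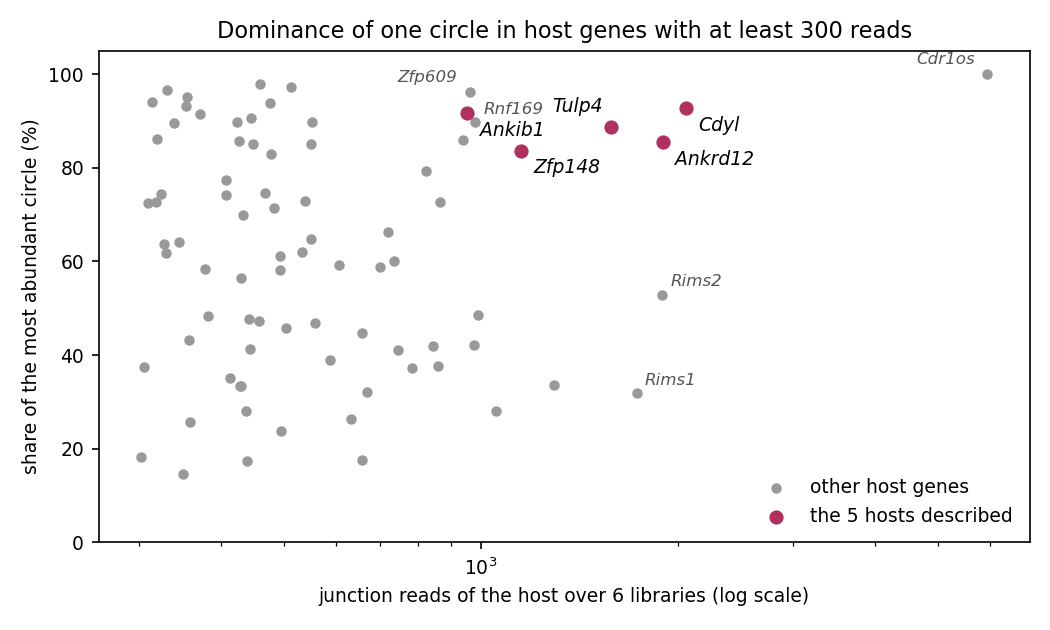
Share of a host's junction reads held by its most abundant circle (vertical axis, percent) against the junction reads of the host over all 6 libraries (horizontal axis, log scale), for the 82 host genes with at least 300 reads. The 5 hosts described lie between 83.7% and 92.9%; hosts not described here lie both above this range (Zfp609 at 96.2%) and below it (Rims1 at 31.9%).

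Most reads of the minor circles came from circles that kept an edge of the dominant one. The edge where the ring begins (the splice acceptor) was shared by 21 of the 49 minor circles with 518 of their 865 reads (59.9%), and the edge where it ends (the splice donor) by 5 with 186 reads (21.5%). In Ankrd12 the shared edge was the start of exon 2, whose dominant circle and 8 others together held 97.3% of the host's reads. These included exons 2 to 5 with 134 reads, exons 2 to 7 with 34 and exons 2 to 6 with 21. Cdyl was the exception, since 131 of its 147 minor reads kept the end of exon 5 and began at exon 4 instead.

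Zfp148 had a separate group of circles downstream. Exons 6 to 7 were closed into a circle of 208 nt with 31 reads, and exons 5 to 7 into one of 334 nt with 29 reads. The circles of exons 4 to 7 and exons 2 to 7, which overlap the dominant circle, ended at the same donor. So did a further circle with 4 reads. In Ankib1, 2 circles with 23 reads in all began 7722 nt upstream of exon 2, an edge at which none of the 6 annotated Ankib1 transcripts has an exon boundary. Of the 54 circles, 30 had fewer than 10 reads over all libraries, 15 were seen in 1 library only and 17 in all 6.

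**Figure D2:**
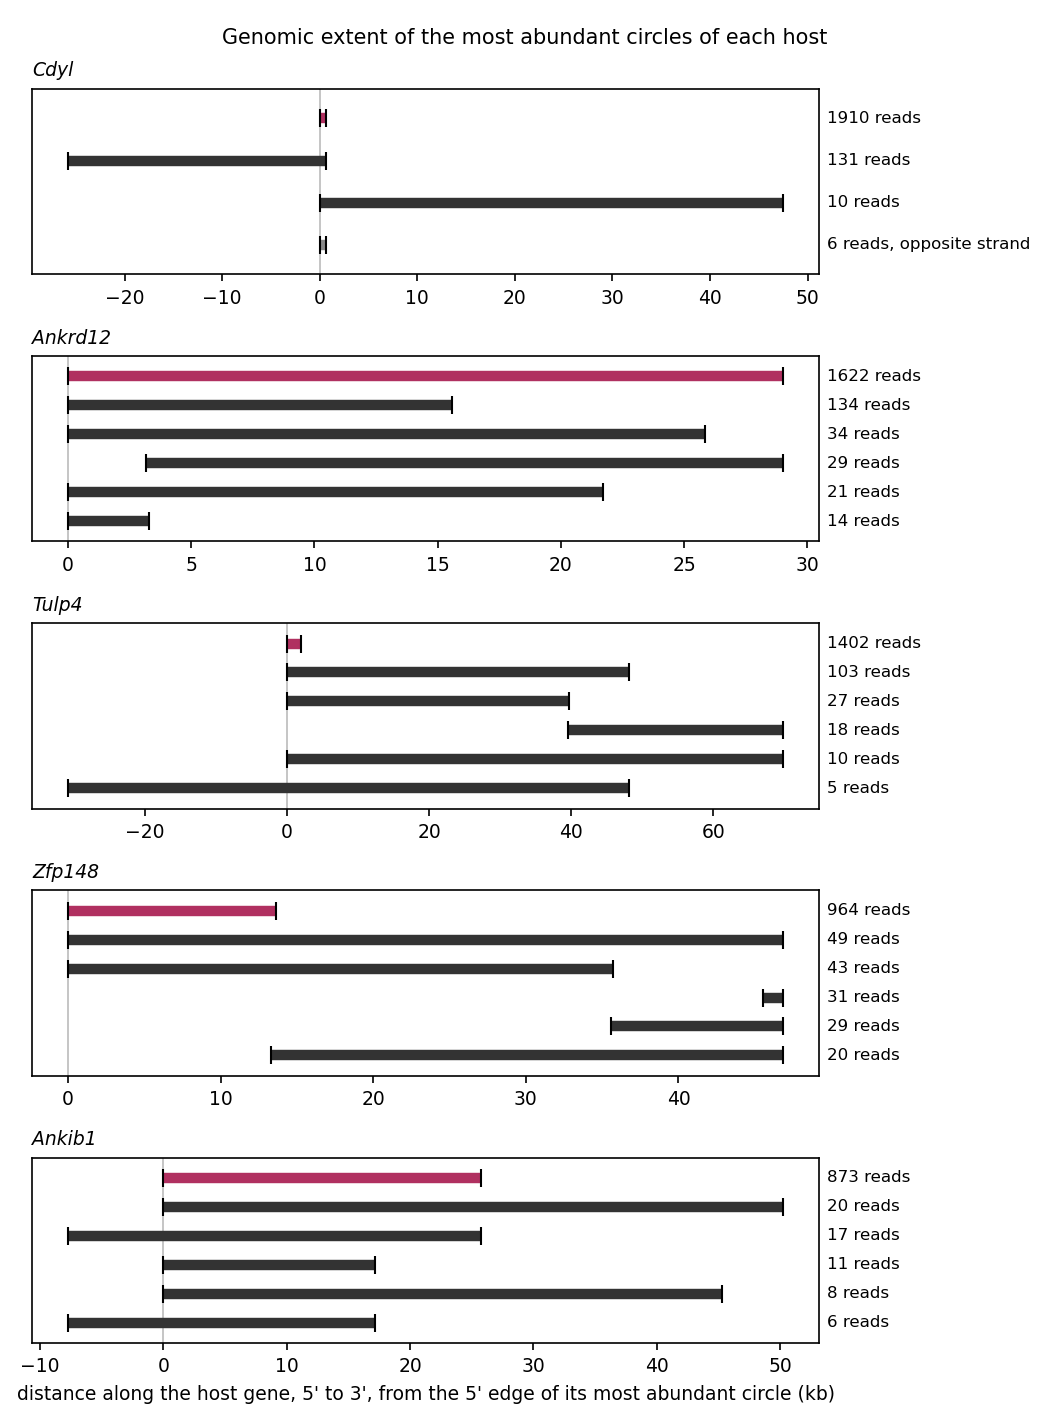
Genomic extent of up to 6 most abundant circles of each host, as distance in kb along the gene from the 5′ edge of the dominant circle (red), with reads over 6 libraries at the right; ticks mark the back-splice edges. The vertical line marks the start of the dominant circle, which most of the Ankrd12 and Tulp4 circles drawn share.

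The order of the 5 dominant circles was nearly the same in every library. Cdyl exon 5 had 310, 363 and 287 reads in WT replicates 1 to 3 and 278, 310 and 362 in A53T replicates 1 to 3. It ranked second behind Cdr1os in 5 libraries and first in WT replicate 1, where Cdr1os had 304 reads. Ankrd12 exons 2 to 8 had 298, 273 and 212 reads in WT and 241, 261 and 337 in A53T. The Cdyl circle stood above it in 6 of 6 libraries.

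The Tulp4 circle had 229, 248 and 176 reads in WT and 237, 287 and 225 in A53T. It lay below Ankrd12 in 5 of 6 libraries, and A53T replicate 2 was the exception. Zfp148 exons 2 to 4 had 169, 210 and 120 reads in WT and 161, 162 and 142 in A53T. Ankib1 exons 2 to 5 had 153, 141 and 121 reads in WT and 150, 133 and 175 in A53T. Zfp148 stood above Ankib1 in 4 of 6 libraries, and their ranges (4386 to 5902 and 3963 to 5405 CPM) overlapped. A difference between circles was not tested. The ranges of Ankrd12 (7672 to 10408 CPM) and Tulp4 (6717 to 8955 CPM) also overlapped.

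**Figure D3:**
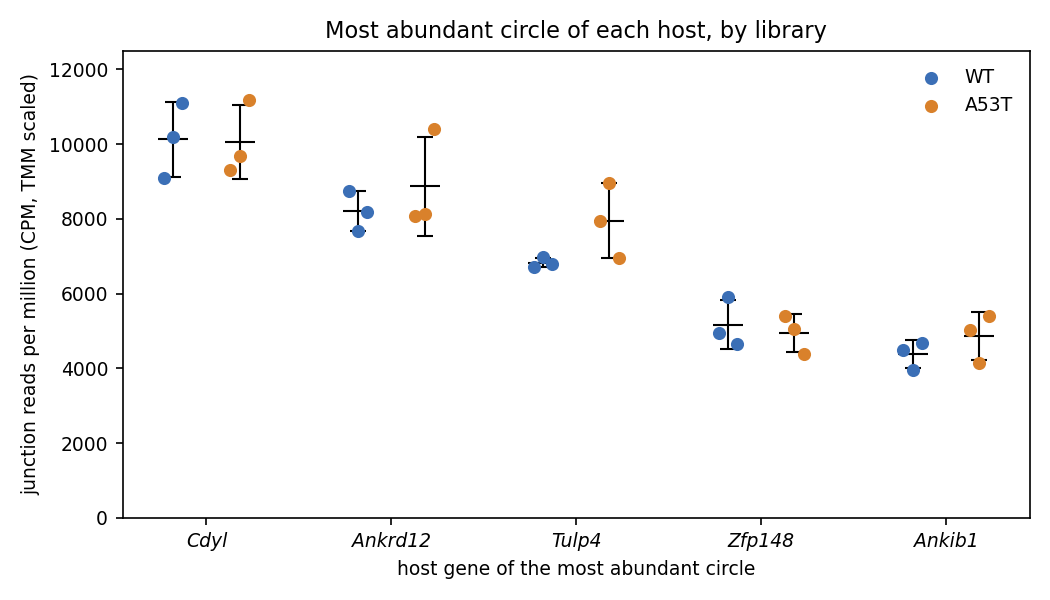
Level of the dominant circle of each host in CPM, 1 point per library, WT in blue and A53T in orange, with mean and SD of 3 libraries as black bars. WT and A53T points overlap for each of the 5 circles.

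The coefficient of variation over the 6 libraries was 8.83% for Cdyl, 10.7% for Zfp148, 11.4% for Ankrd12, 11.7% for Ankib1 and 12% for Tulp4. Counting error alone would give 5.60% for Cdyl and 8.29% for Ankib1 at their mean of 318 and 146 reads per library.

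The comparison of A53T with WT asked whether the model changes these circles, and none of the 16 tested circles of the 5 hosts passed. In the edgeR quasi-likelihood test over all 1214 circRNAs with at least 5 reads in at least 3 libraries, 0% passed a Benjamini-Hochberg adjusted p of 0.05. Adjusted p-values of the 16 circles lay between 0.845 and 1.000. At an unadjusted p under 0.05 there was 1 of the 16, against 57 of the 1214 (4.70%); DESeq2 also made 0 adjusted calls and 51 unadjusted, and limma-voom 1, which was Cdr1os. WT and A53T overlapped for all 16 circles, while 11.3% of the tested circRNAs did not overlap. The median log2 fold change of the 16 was 0.19, against -0.01 for all tested, with 11 above 0 and 5 below. Some circles above 0 met the read filter mainly through A53T libraries. Zfp148 exons 5 to 7 had 1, 4 and 5 reads in WT and 7, 7 and 5 in A53T. Ankrd12 exons 2 to 7 had 4, 0 and 8 against 6, 11 and 5. Ankrd12 exons 3 to 8, at -0.04, had 6, 8 and 1 against 2, 9 and 3. The median and the signs are therefore a description and no test of direction. The other 38 circles had too few reads for the test.

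The dominant circles had narrow intervals. The log2 fold change (A53T over WT) of Cdyl exon 5 was -0.01 (95% interval -0.31 to 0.30), which as a ratio is 0.804 to 1.23. It was 0.11 (-0.20 to 0.43) for Ankrd12, 0.22 (-0.10 to 0.54) for Tulp4, -0.07 (-0.42 to 0.29) for Zfp148 and 0.15 (-0.21 to 0.52) for Ankib1. The sign of the Cdyl value turned under other scalings and tools, and that of Cdyl, Ankrd12 and Zfp148 when single libraries were left out. The Tulp4 circle was at 0.14 without A53T replicate 2, and the Ankib1 circle at 0.08 without A53T replicate 3 and at 0.27 without A53T replicate 2. The upper bound of the 5 intervals was highest for Tulp4, at a ratio of 1.46.

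**Figure D4:**
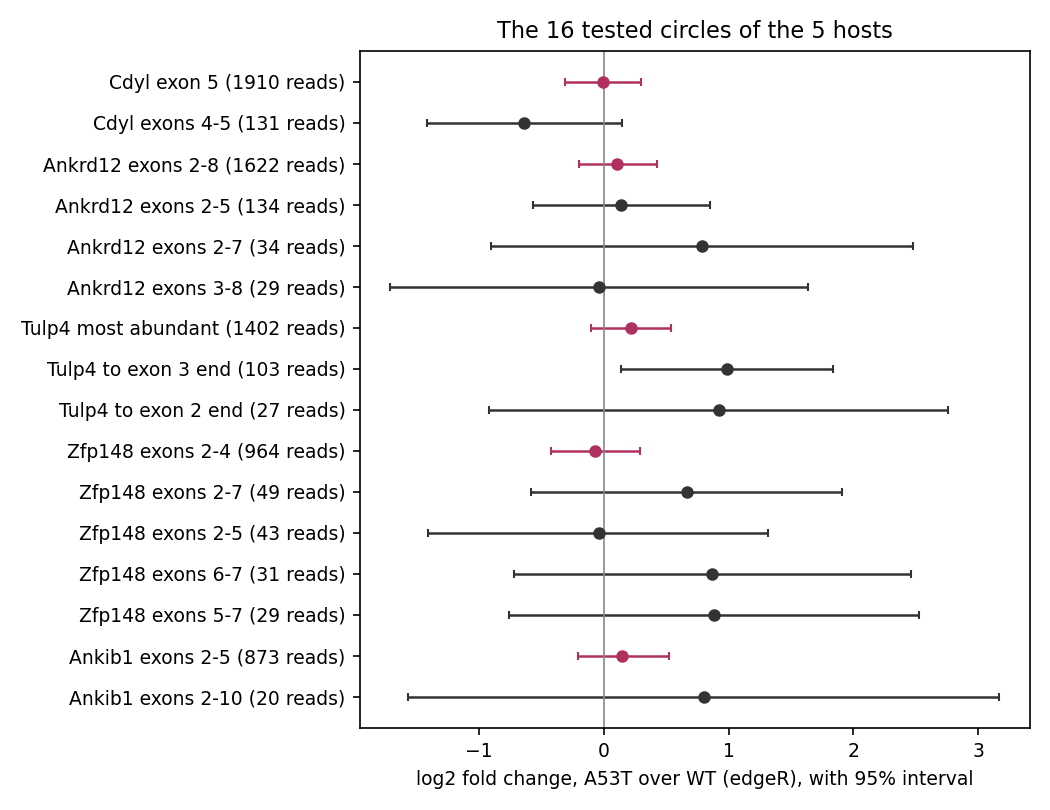
Log2 fold change of A53T over WT with its 95% interval (edgeR) for the 16 tested circles of the 5 hosts, dominant circles in red. Intervals widen as reads fall, from -0.31 to 0.30 for Cdyl exon 5 to -1.57 to 3.17 for Ankib1 exons 2 to 10, and 1 interval, that of the second Tulp4 circle, excludes 0.

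Minor circles were less certain. The second Tulp4 circle, from the same start to the end of exon 3, had 11, 16 and 8 reads in WT and 29, 26 and 13 in A53T. A53T replicates 1 and 2 were high, and A53T replicate 3 lay within the WT range. The change was 0.99 on the log2 scale (standard error 0.42; 95% interval from 0.14 to 1.84), with an unadjusted p = 0.0243 and an adjusted p = 0.845 in the edgeR quasi-likelihood test. Without A53T replicate 1 it was 0.75 with an unadjusted p = 0.151, and without A53T replicate 3 it was 1.30. The second Cdyl circle, exons 4 to 5, had 36, 31 and 14 reads in WT and 25, 17 and 8 in A53T, a log2 fold change of -0.64 (interval -1.42 to 0.15). Without A53T replicate 1 it was -1.07, and without A53T replicate 3 it was -0.28. WT replicate 3 and A53T replicate 3 were the low ones of their groups.

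The second Ankrd12 circle, exons 2 to 5, had 21, 23 and 20 reads in WT and 24, 15 and 31 in A53T, with a log2 fold change of 0.14 (interval -0.57 to 0.85). Without A53T replicate 3 it was -0.08. For Zfp148 exons 2 to 7 the reads were 7, 6 and 6 in WT and 13, 11 and 6 in A53T, and the log2 fold change was 0.67 (interval -0.58 to 1.91). It was 0.41 without A53T replicate 1. Ankib1 exons 2 to 10 had 20 reads in all and a log2 fold change of 0.80 (interval -1.57 to 3.17). Without WT replicate 2 it was 0.20, and over the settings other than leaving out libraries it reached 1.49. This circle fell below the filter without WT replicate 3, A53T replicate 1 or A53T replicate 2. It also did so at 10 reads in 3 libraries, so 11 alternatives gave a value.

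Reads summed over all circles of a host were tested as well. The dominant circles held 83.7 to 92.9% of these reads, so the sums are not a separate line of evidence. Of 1377 host genes tested, 0% passed (edgeR quasi-likelihood, Benjamini-Hochberg), and 63 (4.58%) had an unadjusted p under 0.05. DESeq2 called 0 after adjustment and 48 before, and limma-voom called 1, Cdr1os. Tulp4 had 253, 271 and 197 reads in WT and 275, 328 and 256 in A53T, and the fitted A53T over WT change was 0.27 on the log2 scale (standard error 0.13, 95% interval 0.00 to 0.53, unadjusted p = 0.0509, adjusted p = 0.989). Mean levels were 7573 ± 234 CPM for the WT and 9102 ± 1225 CPM for the A53T libraries (SD, n = 3 per group), with overlap between the groups. Without A53T replicate 2 the change was 0.16 (unadjusted p = 0.293), and without A53T replicate 3 it was 0.34 (unadjusted p = 0.0135, edgeR quasi-likelihood). For Cdyl the log2 fold change was -0.05, for Ankrd12 0.14, for Zfp148 0.01 and for Ankib1 0.13, with standard errors of 0.12 to 0.16. Without A53T replicate 3, Ankrd12 was at 0.01 and Ankib1 at 0.02. The groups overlapped for all 5 hosts, while 10.5% of tested host genes did not overlap. Summed circles of the 5 hosts took 3.78 to 4.08% of the reads in WT libraries and 4.05 to 4.18% in A53T libraries.

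How the reads of a host were divided among its circles was compared next. The dominant circle of Zfp148 held 85.8, 88.6 and 82.8% of the host's reads in WT and 79.7, 82.2 and 81.6% in A53T. All 3 A53T libraries lay below all 3 WT libraries, but the highest A53T value lay close to the lowest WT value and inside its 95% Wilson interval of 75.8 to 88.0%. The group means were 85.7 ± 2.93% and 81.2 ± 1.32% (SD, n = 3 each), a difference of -4.54 points. The reads outside the dominant circle numbered 28, 27 and 25 in WT and 41, 35 and 32 in A53T.

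Tulp4 showed shares of 90.5, 91.5 and 89.3% in WT and 86.2, 87.5 and 87.9% in A53T. Here too the groups did not overlap, with means of 90.5 ± 1.09% and 87.2 ± 0.895% and a difference of -3.26 points. Minor Tulp4 circles had 24, 23 and 21 reads in WT and 38, 41 and 31 in A53T. Both differences had p = 0.1 in a two-sided exact permutation test, which is the smallest value that 3 samples against 3 allow, and 0.25 after Benjamini-Hochberg adjustment over the 5 hosts. Groups that did not overlap were found for these 2 of the 5 hosts, and for 10 of the 81 hosts with at least 300 reads and more than 1 circle (12.3%).

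For the other hosts the shares overlapped. The dominant Cdyl circle held 89.6, 91.0 and 95% in WT and 90.6, 94.8 and 96.3% in A53T (difference 2.01 points, exact permutation p = 0.500). In both genotypes replicate 3 was the highest. Without A53T replicate 3 the difference was 0.81 points, and without A53T replicate 1 it was 3.67. Ankrd12 had 86.6 ± 0.625% in WT and 84.5 ± 1.59% in A53T (difference -2.04 points, exact permutation p = 0.200, n = 3 each), and -1.20 points without A53T replicate 1. Ankib1 had 91.2 ± 2.78% and 92.2 ± 1.77% (exact permutation p = 0.700, n = 3 each), and its difference of 0.91 points turned sign when only exonic circles were counted.

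**Figure D5:**
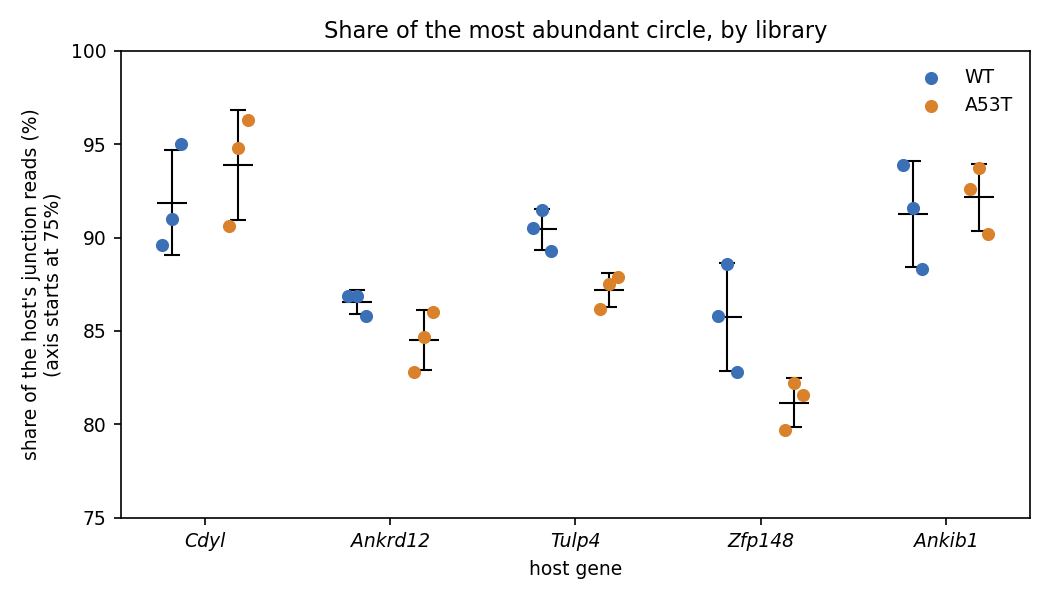
Share of the host's junction reads held by its dominant circle, in percent, 1 point per library with mean and SD of 3 libraries; the axis starts at 75%. A53T points lie below WT points for Tulp4 and Zfp148 and overlap with them for Cdyl, Ankrd12 and Ankib1.

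Genes that work with the 5 host proteins or belong to their families were also compared between A53T and WT. Of 50 such genes in 5 lists, 28 had a circRNA, 11 had enough reads for the host gene test and 0 passed (edgeR quasi-likelihood, adjusted p of 0.989 or more), with 7 above 0 and 4 below. Among chromatin partners of CDYL, 3 of 16 were tested: Ezh2, the histone H3 lysine 27 methyltransferase gene (181 reads in all), Ehmt1, a histone H3 lysine 9 methyltransferase gene (149 reads), and the paralog Cdyl2 (28 reads). Their median log2 fold change was 0.23, against 0.01 over all tested hosts. Among the coactivator and corepressor genes around Ankrd12, 4 of 7 were tested, with a median of -0.08; the paralog Ankrd11 had 102 reads and a log2 fold change of -0.38, the coactivator genes Ncoa2 and Ncoa1 had 183 and 43 reads and were at 0.12 and 0.36, and the corepressor gene Ncor1 had 146 reads and was at -0.27.

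The ubiquitin ligases of the class of Ankib1 had 3 of 13 members tested, with a median of 0.52, where Rnf216 was at -0.26, Arih1 at 0.52 and Cul9 at 0.94. Sp3, at 0.18, was the tested member of 6 relatives of Zfp148, and none of the 8 genes around Tulp4 was tested. Of these 8, 2 had circRNAs, with 7 reads in all, and the others, Tulp1, Tulp2 and Tulp3 among them, had no circRNA listed.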

How the data were processed

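Total RNA of 3 WT and 3 A53T mouse brain samples was enriched for circRNA and made into strand-marking, paired-end libraries, per the labels' protocols. The deposited table gives the count of back-splice junction reads per circRNA and library as well as log2 CPM values made by the authors in edgeR, per the file headers. Tools named in the submitters' processing notes are STAR, cutadapt 1.9.3 and edgeR 3.16.5, with build mm39. The sources used here name no circRNA caller and do not say if strand was used in counting. The deposited log2 CPM served only as a check and differed by at most 0.122 from values recomputed with a prior count of 2. No circRNA is listed with fewer than 2 reads in its highest library.

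All tests used the counts as deposited, with the total over all listed circRNAs as library size; the 338 circRNAs without a gene name (0.690 to 0.828% of reads) stayed out of host sums. circRNAs or host sums with at least 5 reads in at least 3 libraries entered edgeR 4.0.16 (quasi-likelihood, robust, TMM; R 4.3.3), two-sided, without covariates, with Benjamini-Hochberg adjustment over all of them and a threshold of 0.05. The script was tested on simulated counts. Standard errors came from the F statistic. For shares, a two-sided exact permutation test was used (scipy 1.17.1). Wilson intervals (95%) reflect counting error alone: reads amplified by PCR and lacking molecular identifiers do not each stand for a molecule.

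Exons were assigned by matching span and predicted length to runs of exons of the named transcript in GENCODE M21, whose build is older; no coordinates were converted. This matched 12739 of 13133 exonic circRNAs and all 31 of the 5 hosts.

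Every circle of the 5 hosts that passed the filter or ranked second was named, with up to 4 tested genes of each list. Members and lists were chosen with earlier results of these data known. Alternatives were other scalings, filters and tools (DESeq2 1.42.0, limma 3.58.1), a replicate block, leaving out Cdr1os, and leaving out each library; for shares, other denominators and pooled reads. All 6 libraries were kept. Replicate pairs differed by more than counting noise (chi-square of 2.12 to 3.42 per degree of freedom). This cannot show whether they come from separate animals, since the spread may be technical. Figures were drawn with matplotlib 3.10.9.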

Additional observations from a re-analysis of the deposited data

How the results depend on the processing

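In the circRNA test 1 circRNA passed with at least 10 reads in 3 libraries (Nlrp5-ps) and 1 with limma-voom (Cdr1os), and 0 to 1 when single libraries were left out; in the host gene test 1 passed with limma-voom (Cdr1os) and 0 without any library. None was a circle or host described here; the cause was not tested. The log2 fold change of the Cdyl circle was 0.00 with upper quartile scaling, with DESeq2 and without Cdr1os, 0.01 with limma-voom and 0.03 without a filter, and lay between -0.08 and 0.06 when libraries were left out. Leaving out libraries gave -0.01 to 0.20 for the Ankrd12 circle, -0.14 to 0.05 for Zfp148 and -0.08 to 0.40 for the second Ankrd12 circle. The host sum of Zfp148 was 0.00 with DESeq2 and its size factors, -0.01 with library totals, limma-voom, a filter of 10 reads or without Cdr1os, and -0.09 to 0.08 without single libraries. The share difference of Ankib1 was -1.55 points over exonic circles and -0.32 over circles with at least 5 reads, and -0.56 to 2.21 without single libraries; the cause of these turns was not tested. Tulp4 kept its sign in the dominant circle, the host sum and the share difference under every alternative run; its share over exonic circles was not run, since its dominant circle is listed as intronic. For Zfp148 the share difference was -6.02 to -3.09 points without single libraries. Same-numbered WT and A53T libraries did not deviate together (correlations of -0.02, 0.04 and 0.02), so numbers were not taken as pairs; with a replicate block 0 circRNAs and 0 host genes passed, and 47 circRNAs had an unadjusted p under 0.05. The smallest p of a paired exact test of shares is 0.25. Depth limits the minor circles, 38 of which could not be tested.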

Other observations

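Reads with the same junction edges on the opposite strand were listed for 3 of the 5 dominant circles. They numbered 6 for Cdyl, beside 1910 on the sense strand (0.313% of the sum), 7 for Ankrd12 (0.430%) and 3 for Zfp148 (0.310%), and no such circle was listed for Tulp4 or Ankib1. Of the 49 circRNAs with at least 300 reads, 16 had such a mirror, with 0.538% of the reads in all and at most 6.28%.

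Over the 6 libraries, the host sum of Tulp4 was most like that of Kat6b, a histone acetyltransferase gene (Pearson r = 0.97 of log2 CPM), and that of Nlrp5-ps (0.89), among 189 host genes with at least 30 reads per library on average. Cdyl was most like Ddhd1 (0.95), Zfp148 like Rsrc1 (0.92), and Ankrd12 like Setd3 (0.83), followed by Ankib1 (0.81). Ankib1 was most like Mcph1 (0.84). These are descriptions of 6 points that share library depth and scaling, picked as the highest of many, and the differences between libraries behind them are small.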
